A study of Rattus norvegicus with 9 samples.

Results

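The mitochondrial ribosomal protein genes of the rat were described across 9 RNA-seq libraries whose tissue is labelled the middle end of a femoral fracture. They comprise every protein-coding gene of the deposited count table whose symbol starts with Mrpl or Mrps followed by a number, which gave 76 of 35360 genes. Of these, 73 passed a filter on low counts and entered the tests, among 15460 genes tested. The libraries formed 3 groups of 3. The Gel group received a gel alone, the ALN+Gel group received the gel with the bisphosphonate ALN, and the Mg-ALN@Gel group received the gel with a material built from magnesium and ALN. The latter groups are called ALN and Mg-ALN here. All groups share the fracture and the gel, so none is an unfractured or untreated control. The labels used here give no strain, sex, age or time after fracture, and they do not say that the libraries of a group are separate animals, so the spread behind each p-value may be technical and is that of these samples alone. All 10 markers of osteoblasts and osteocytes had counts in every library. Their sums were 40846 to 104748 CPM (read counts scaled to library size) in Gel, 16178 to 31337 in ALN and 28659 to 36108 in Mg-ALN. Every Gel library thus lay above every other library, but most of these counts were of a single gene, Col1a1.

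Mitochondria carry their own ribosome, which translates the few proteins encoded by mitochondrial DNA, all of them core subunits of the respiratory chain and the ATP synthase. Its ribosomal RNAs come from mitochondrial DNA, but every one of its proteins is encoded in the nucleus, made in the cytosol and imported. Proteins of the small subunit (Mrps genes) hold the messenger RNA and the decoding centre, and proteins of the large subunit (Mrpl genes) surround the site of peptide bond formation and the exit tunnel. Some have a bacterial counterpart and others are found only in mitochondrial ribosomes. In bone, osteoclasts are known as cells rich in mitochondria. In bulk tissue, fewer cells of a type and less RNA per cell cannot be told apart.

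The genes are scattered over 19 chromosomes of the table, and are not a cluster of neighbours. The promoters of 5 members are shown because the comparisons or the pairing of neighbours turn on these genes, and because they carry short sequences known as sites of NRF1, of ETS family factors such as GABP, and of YY1. These are factors linked to nuclear genes for mitochondria. RefSeq promoters (build GRCr8, 250 bases before to 50 bases after the start of the gene) were matched for 61 of the 76 members. The motifs searched on both strands were CGCANGCG for NRF1, CCGGAAG for ETS and AANATGGCG for YY1, and their matches stand in capitals. The windows are chr9:22811184-22811483 (minus strand) for Mrpl14, chr15:36086207-36086506 (plus strand) for Mrpl57, chr14:9122857-9123156 (minus strand) for Mrps18c, chr6:30553938-30554237 (minus strand) for Mrpl33 and chr1:142116981-142117280 (minus strand) for Mrpl46. Each is written 5′ to 3′ along its gene.
Mrpl14: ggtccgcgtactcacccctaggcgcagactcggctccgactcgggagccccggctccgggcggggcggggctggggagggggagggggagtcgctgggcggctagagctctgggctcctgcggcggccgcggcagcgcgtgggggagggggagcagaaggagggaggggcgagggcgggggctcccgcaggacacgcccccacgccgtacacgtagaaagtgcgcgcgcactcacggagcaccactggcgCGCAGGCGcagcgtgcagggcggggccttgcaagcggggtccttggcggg
Mrpl57: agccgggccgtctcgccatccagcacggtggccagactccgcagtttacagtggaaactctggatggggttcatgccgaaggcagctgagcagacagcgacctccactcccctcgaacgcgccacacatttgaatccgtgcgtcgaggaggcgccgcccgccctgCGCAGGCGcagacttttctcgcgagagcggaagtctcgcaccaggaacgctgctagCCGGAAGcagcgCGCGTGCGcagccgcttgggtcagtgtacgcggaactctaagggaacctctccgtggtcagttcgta
Mrps18c: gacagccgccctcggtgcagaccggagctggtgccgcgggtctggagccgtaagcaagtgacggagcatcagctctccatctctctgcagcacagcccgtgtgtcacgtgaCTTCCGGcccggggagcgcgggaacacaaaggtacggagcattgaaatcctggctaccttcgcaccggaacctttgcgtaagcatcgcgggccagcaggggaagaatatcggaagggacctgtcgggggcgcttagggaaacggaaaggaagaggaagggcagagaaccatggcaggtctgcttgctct
Mrpl33: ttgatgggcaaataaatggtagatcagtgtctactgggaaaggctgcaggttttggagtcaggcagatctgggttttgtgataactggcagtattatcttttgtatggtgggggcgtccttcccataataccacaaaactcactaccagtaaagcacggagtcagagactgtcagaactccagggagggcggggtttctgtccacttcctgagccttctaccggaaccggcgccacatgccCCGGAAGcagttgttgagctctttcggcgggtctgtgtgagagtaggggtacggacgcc
Mrpl46: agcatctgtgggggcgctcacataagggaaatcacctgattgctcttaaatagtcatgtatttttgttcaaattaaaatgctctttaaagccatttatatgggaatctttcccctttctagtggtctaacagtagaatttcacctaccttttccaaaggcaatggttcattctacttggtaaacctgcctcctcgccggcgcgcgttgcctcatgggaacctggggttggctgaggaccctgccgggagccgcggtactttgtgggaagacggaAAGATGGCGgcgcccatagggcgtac
In Mrpl14 the NRF1 match begins at base 1, the first base of the gene. Mrpl57 held NRF1 matches at -85 and -17 with an ETS match between them at -29. The ETS match of Mrpl33 lay at -9 and that of Mrps18c at -139, and the YY1 match of Mrpl46 lay downstream of the start, at base 25. The Mrpl46 window shares 267 bases with that of Mrps11, a small-subunit gene that is read in the opposite direction.

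Across the 61 matched members, 21 promoters (34.4%) held the ETS letters, against 10.7% of 21851 protein-coding promoters and 15.9% of the 11524 promoters of genes tested here. The YY1 letters stood in 13 member promoters (21.3%), against 3.67% and 5.67%. The NRF1 letters stood in 17 (27.9%), against 9.89% and 15.2%. At least 1 of the 3 motifs was present in 40 of the 61 member promoters, or 65.6%, compared with 31.1% of the promoters of genes tested. The matches of the 3 motifs shared no base with each other, and in 1 member promoter a match shared bases with the GC-box letters GGGCGG. GC-box letters stood in 50.8% of member promoters, against 41.8% of all protein-coding promoters and 59.3% of those of genes tested. A match is a run of letters and not a bound site. Members with and without an ETS match had nearly the same median log2 fold change in ALN against Gel, 0.54 and 0.56, and so did members with and without an NRF1 match, 0.57 and 0.55. In Mg-ALN against ALN the 12 members with a YY1 match that were tested had a median of -0.24 and the 47 without one had 0.03. Those medians were 0.56 and 0.55 in ALN against Gel and 0.26 and 0.69 in Mg-ALN against Gel. With and without an ETS match they were -0.05 and -0.01 in Mg-ALN against ALN, and for NRF1 -0.03 and -0.03. None of these differences was tested.

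Levels between genes were compared per length, as the FPKM values that the authors deposited. The 73 members had a median FPKM of 21.1 over all libraries, and 64 of them lay in the upper 50% of the genes tested. Between 10 and 50 FPKM lay 50 members. The highest level was that of Mrpl33, a small protein of the large subunit, with 149 ± 35.6 FPKM in Gel, 201 ± 56.6 in ALN and 370 ± 162 in Mg-ALN (SD, n = 3). Its gene model of 236 bases is shorter than the fragments of 370 to 420 bases that the labels say were selected, so its level per length is uncertain. Mrpl17 (132 FPKM over all libraries), Mrpl54 (106), Mrpl52 (78.5) and Mrpl23 (70.3), whose protein lies at the exit of the peptide tunnel, followed. The lowest levels among members tested were those of Mrps5 (6.19 FPKM), Mrps2 (4.99), Mrpl47 (3.45), Mrpl30 (2.47) and Mrpl1 (2.14), the last a protein of the mobile stalk at the exit of the transfer RNAs.

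The 3 members that did not pass the filter were Mrpl36, Mrpl53 and Mrps21l. Mrpl36 had 1 count in ALN library 2 and none elsewhere. Mrpl53 had no count in any library. Mrps21l, which shares its name with the paralogue Mrps21, had 3, 0 and 1 counts in Gel, 0, 0 and 1 in ALN and none in Mg-ALN. Those counts are too low for a level or a comparison.

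The summed CPM of the members was higher in the libraries with either ALN material than in those with gel alone. It was 1764, 1651 and 1360 CPM in the Gel libraries 1, 2 and 3. The sum was 2941, 2291 and 1936 CPM in the ALN libraries and 3137, 2063 and 2028 CPM in the Mg-ALN libraries. Every library of both ALN groups lay above every Gel library, while the ranges of the ALN groups overlapped each other. Library 1 had the highest sum in each group, and Gel library 3 had the lowest of all. As a share of all counts, with no scaling, the members made up 0.177, 0.182 and 0.162% in Gel, 0.225, 0.230 and 0.220% in ALN and 0.289, 0.229 and 0.170% in Mg-ALN. On that measure Mg-ALN library 3 lay within the range of Gel, and the other 5 libraries of the ALN groups lay above it. When each gene was centred on its own mean over the 9 libraries, the median member stood at -0.22, -0.31 and -0.55 (log2 CPM) in Gel, at 0.54, 0.15 and -0.06 in ALN and at 0.54, 0.04 and -0.05 in Mg-ALN. Of the 73 members, 50 had their lowest CPM in Gel library 3, while 30 had their highest in ALN library 1 and 34 in Mg-ALN library 1. In the plot of members by library the shift is seen across the whole set of genes and not in a few of them.

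**Figure D1:**
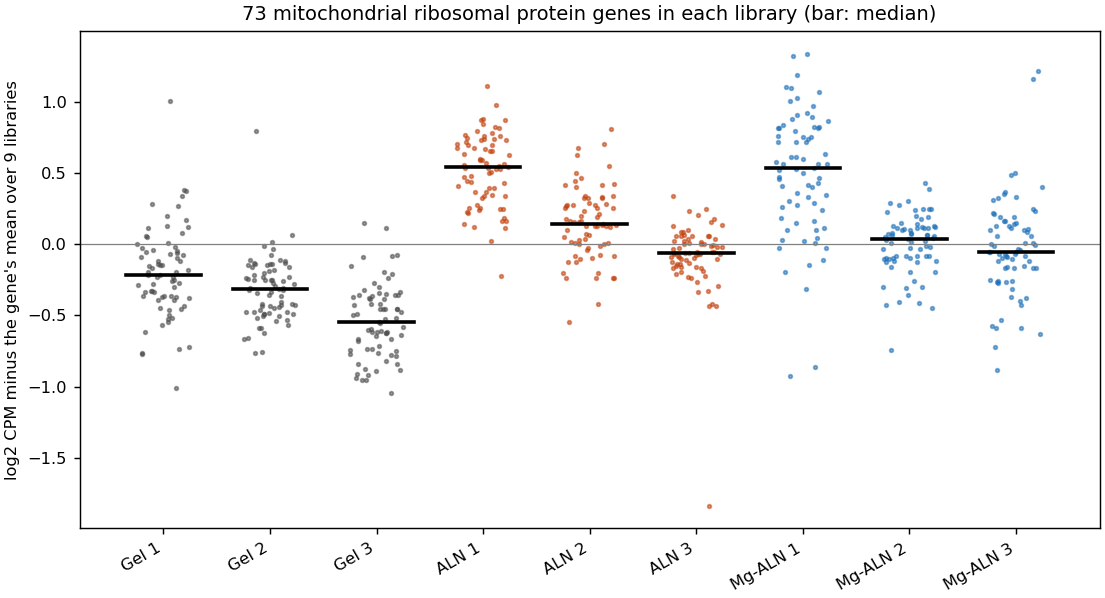
Each point is 1 of 73 mitochondrial ribosomal protein genes, drawn as log2 CPM minus the gene's mean over 9 libraries (y axis) in each library (x axis), with a black bar at the median. The Gel medians run from -0.55 to -0.22, below the -0.06 to 0.54 of the ALN and Mg-ALN libraries.

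Members varied together. The mean pairwise correlation of their log2 CPM over the 9 libraries was 0.61 among the 73 members, 0.63 among 29 nuclear genes of the respiratory chain and 0.01 among all genes tested. After the group means were removed it was 0.53 among members and 0.39 among the respiratory chain genes, so the members also varied together among libraries of the same group. These correlations share libraries and scaling and are given as a description. Mrpl41 (r = 0.98 with the median member) and Mrpl20 (0.97) were the most typical, and 41 members had r over 0.8. Mrps30 (0.26), Mrps2 (0.16) and Mrpl1 (-0.07) followed the others least. The members' median biological coefficient of variation in the edgeR fit was 29.7%, against 28.9% for the respiratory chain genes and 39.4% over all genes tested. The members' median level was also higher than that of all genes tested, 25.5 against 15.9 CPM. Relative to the fit's trend with level, the median dispersion was 0.56 for members, 0.53 for the respiratory chain genes and 0.65 for all genes tested.

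The comparison of ALN with Gel asks what the bisphosphonate in the gel does to these genes. Here 72 of 73 members had a positive log2 fold change (49.8% of all genes tested did), with a median of 0.56 against -0.00 over all genes tested. Members are short genes, with a median length of 1149 bases. The 1936 protein-coding genes tested under that length had a median of 0.32, and 1331 of them were positive. At an unadjusted p under 0.05, 22 members were higher and 0 lower, that is 30.1% of the members where 5.78% of all genes tested were higher and 2.42% lower. None of the 73 passed edgeR's quasi-likelihood test at an adjusted p under 0.05, and neither did any of the 15460 genes. A joint test of any difference among the 3 groups also called 0, with 23 members at an unadjusted p under 0.05 where 9.29% of all genes tested were. DESeq2 called 1 member, Mrpl15 (1.37% of the members), where it called 0.735% of all genes tested higher and 0.223% lower. Limma-voom called 0, and limma-voom with quality weights called 2, Mrpl15 and Mrpl12, where it called 1.6% of all genes tested higher. With the replicate number as a block, 35 members were at p under 0.05 over the 9 libraries, where 6.57% of all genes tested were higher, and 38 over the 2 groups alone, where 9.13% were. With the block 0 were called. The block was chosen from correlations between same-numbered Gel and ALN libraries in these same data, and the labels state no pairing. Over the 9 libraries it also pairs Mg-ALN, whose r with the same-numbered others was -0.199 to 0.130. The ranges of the 2 groups did not overlap for 38 members, all higher in ALN, against 11.1% higher and 5.03% lower over all genes tested.

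Leaving out a library moved that count of 22. With Gel library 3 left out it was 6, or 8.22% of the members where 2.27% of all genes tested were higher, and with Gel library 2 left out 11, beside 2.99%. Omitting library 1 or 2 of ALN gave 8 and 10, beside 3.07 and 2.92%, and omitting library 1 of Mg-ALN gave 38, beside 7.33%. The median over members stayed between 0.38 and 0.62 with any 1 library left out, and 67 members were positive in all 9 of those fits. Scaling by library totals alone shifted the median of all genes to -0.18 and gave a member median of 0.34. For Mg-ALN against Gel the same scaling gave -0.23 and 0.40. Over 5 scalings, 68 members had a positive log2 fold change in each for ALN against Gel and 58 for Mg-ALN against Gel. For these counts, and for the 67 above, the share of all genes tested is not given here.

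Mrpl15, a large-subunit protein with a bacterial counterpart, stood first in this comparison. The gene (ENSRNOG00000008566) lies on chromosome 5 from 14609674 to 14620965 in the table's coordinates. It had 45.5, 31.1 and 28.7 CPM in Gel, 93.6, 86.1 and 59.8 in ALN and 70.5, 46 and 50.3 in Mg-ALN. Every ALN library lay above every Gel library and the Mg-ALN libraries lay between or among them, all above Gel. The log2 fold change of ALN against Gel was 1.19 ± 0.27 (SE), with an unadjusted p of 0.0019 and an edgeR adjusted p of 0.51. The adjusted p was 0.036 in DESeq2 and 0.027 under quality weights, and over all settings the adjusted p lay between 0.027 and 1.

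Mrpl12 encodes the stalk protein of the large subunit, which is also known to bind the mitochondrial RNA polymerase. It had 57.8, 49.3 and 36.9 CPM in Gel, 119, 103 and 66.8 in ALN and 106, 65.2 and 67.3 in Mg-ALN. The lowest ALN value and the lowest Mg-ALN value were both above the highest Gel value. In ALN against Gel its log2 fold change was 1.002 ± 0.30, with an unadjusted p of 0.0083 and an edgeR adjusted p of 0.53. It was -0.28 ± 0.30 in Mg-ALN against ALN and 0.73 ± 0.30 in Mg-ALN against Gel.

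Mrpl48 and Mrpl57 encode large-subunit proteins found only in mitochondrial ribosomes. Mrpl48 had 20.9, 22.2 and 19.5 CPM in Gel, 59.1, 35.8 and 34.7 in ALN and 44.5, 24.4 and 27.8 in Mg-ALN. Gel was the lowest and the tightest of its groups. In ALN against Gel it stood at 1.05 ± 0.29 (log2). Mrpl57, whose promoter is printed above with NRF1 and ETS matches, had 17.1 ± 2.36 CPM in Gel, 31.0 ± 8.10 in ALN and 28.0 ± 4.95 in Mg-ALN (SD, n = 3). It overlaps the gene Ska3 in the table, so its counts are uncertain. Mrps18c, a small-subunit protein, had 9.40 ± 0.98, 19.97 ± 5.62 and 16.6 ± 6.37 CPM in the same order. These genes and Mrpl12, Mrpl15 and Mrpl16 were the 6 members at p under 0.05 with any 1 library left out. They are also the 6 with the smallest p in the fit of all libraries, from which those fits are not independent. The share of all genes tested that stayed under 0.05 is not given here. The lowest log2 fold change of the comparison was that of Mrpl1, -0.06 ± 0.79.

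**Figure D2:**
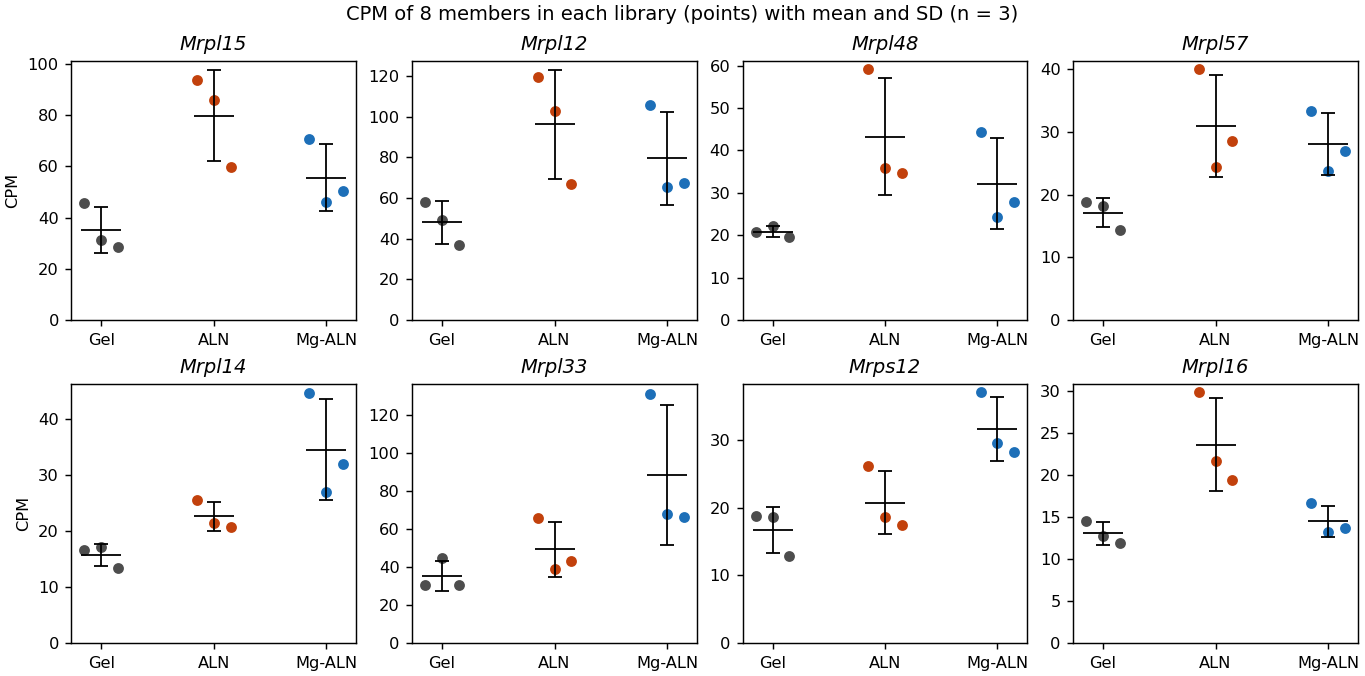
CPM (y axis, from 0) of 8 members in each group (x axis); each point is a library, the long bar is the mean and the capped bar the SD of 3 libraries. Mrpl15, Mrpl12, Mrpl48, Mrpl57 and Mrpl16 have their highest group mean in ALN, and Mrpl14, Mrpl33 and Mrps12 in Mg-ALN.

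The comparison of Mg-ALN with Gel uses the same Gel libraries as the comparison of ALN with Gel, so the 2 are not independent. In it 71 of 73 members had a positive log2 fold change (47.7% of all genes tested), with a median of 0.59 against -0.03. The 1936 protein-coding genes tested under 1149 bases, the members' median length, had a median of 0.46, and 1400 were positive. At an unadjusted p under 0.05, 26 members were higher and 0 lower, where 5.43% of all genes tested were higher and 3.88% lower. Again 0 members passed edgeR's adjusted threshold, DESeq2 called 1, Mrpl14, where it called 0.156% of all genes tested higher and 0.176% lower, and limma-voom called 0 with and without quality weights. The ranges did not overlap for 35 members, all higher, against 9.76% higher and 8.56% lower over all genes tested. The count of 26 dropped to 8 when Gel library 3 was omitted, to 8 when library 1 of Mg-ALN was omitted, and to 14 when library 1 of every group was, where 1.82, 3.05 and 5.46% of all genes tested were higher. The member median without Mg-ALN library 1 was 0.36. The negative members were Mrps30 at -0.15 ± 0.26 and Mrps31 at -0.12 ± 0.35.

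Mrpl14, a large-subunit protein at the face that meets the small subunit, stood first. The gene (ENSRNOG00000019734) lies on chromosome 9 from 17687622 to 17698569 in the table's coordinates, and its promoter is printed above. It had 16.6, 17.0 and 13.4 CPM in Gel, 25.5, 21.5 and 20.7 in ALN and 44.6, 27.0 and 31.9 in Mg-ALN. The 3 groups did not overlap, with Gel the lowest and Mg-ALN the highest. Its log2 fold change in Mg-ALN against Gel was 1.14 ± 0.24, with an unadjusted p of 0.0010 and an edgeR adjusted p of 0.53. DESeq2 gave an adjusted p of 0.021, and over all settings the adjusted p lay between 0.021 and 0.84.

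Mrpl33 had 30.5, 44.5 and 30.5 CPM in Gel, 65.8, 38.7 and 43.0 in ALN and 131, 67.8 and 66.0 in Mg-ALN. All 3 Mg-ALN libraries lay above every other library, but Mg-ALN library 3 (66.0) only just above ALN library 1 (65.8). Mg-ALN library 1 was far above the rest. Against Gel, Mrpl33 stood at 1.32 ± 0.34 (log2). It is the shortest member (236 bases), and short coding genes also stood high in Mg-ALN library 1, as described below. Mrps12, the small-subunit protein at the decoding centre, had 18.7, 18.6 and 12.8 CPM in Gel, 26.1, 18.6 and 17.5 in ALN and 37.0, 29.6 and 28.3 in Mg-ALN. Gel and ALN overlapped for Mrps12, and Mg-ALN lay above both. Its log2 fold change was 0.92 ± 0.25 against Gel and 0.61 ± 0.25 against ALN.

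The small-subunit proteins Mrps23, Mrps28 and Mrps17 completed the 6 smallest p-values of this comparison, with log2 fold changes of 0.95 ± 0.25, 1.07 ± 0.31 and 0.82 ± 0.24. Mrps28 had 10.96 ± 0.76 CPM in Gel, 20.6 ± 7.01 in ALN and 23.0 ± 6.91 in Mg-ALN (SD, n = 3). Each of these 3 genes was higher in every Mg-ALN library than in any Gel library. With Mrpl14, Mrpl18, Mrpl33 and Mrps12 they made up the 7 members at p under 0.05 with any 1 library left out. Here too the share of all genes tested that stayed under 0.05 is not given.

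The comparison of Mg-ALN with ALN asks what the magnesium material adds. It shares libraries with both other comparisons. Taken as a list the members did not stand apart here, with 35 of 73 positive (46.4% of all genes tested) and a median of -0.02 against -0.04. At an unadjusted p under 0.05, 3 members were higher and 2 lower, where 3.76% of all genes tested were higher and 5.43% lower, and 0 passed the adjusted threshold in edgeR, DESeq2 or limma-voom (with quality weights, 0.0129% of all genes were called higher). The ranges did not overlap for 3 members that were higher (Mrpl14, Mrpl33 and Mrps12) and 3 that were lower (Mrpl16, Mrpl50 and Mrps10), against 6.76% and 9.77% of all genes tested. The member median was -0.22 without Mg-ALN library 1 and 0.18 without ALN library 1. It was positive in 9 of 23 alternative settings, so its sign is not settled by these data.

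Individual members went opposite ways. Mrpl16, a large-subunit protein near the site of peptide bond formation, had 14.6, 12.8 and 11.9 CPM in Gel, 29.9, 21.6 and 19.4 in ALN and 16.6, 13.2 and 13.7 in Mg-ALN. The Mg-ALN libraries lay below all ALN libraries and overlapped with Gel. Against ALN it stood at -0.71 ± 0.24 (log2), with an unadjusted p of 0.016 and an edgeR adjusted p of 0.50. Mrpl44, a protein of the large subunit found only in mitochondrial ribosomes, had 20.9, 13.3 and 16.0 CPM in Gel, 32.0, 34.6 and 18.6 in ALN and 20.3, 16.5 and 14.7 in Mg-ALN. Its ALN library 3 fell within the range of both other groups, and its log2 fold change against ALN was -0.73 ± 0.29. Mrpl50 (-0.55 ± 0.26), Mrps10 (-0.61 ± 0.32), Mrps2 (-0.53 ± 0.32) and Mrpl15 (-0.52 ± 0.27) had the next smallest p-values among the lower ones. On the higher side Mrpl33 stood at 0.84 ± 0.33 and Mrpl14 at 0.61 ± 0.24, followed by Mrps12, then Mrps17 at 0.44 ± 0.24, Mrps24 at 0.43 ± 0.27 and Mrpl49 at 0.55 ± 0.41. Over the 73 members, the highest group mean was in ALN for 38, in Mg-ALN for 35 and in Gel for 0.

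**Figure D3:**
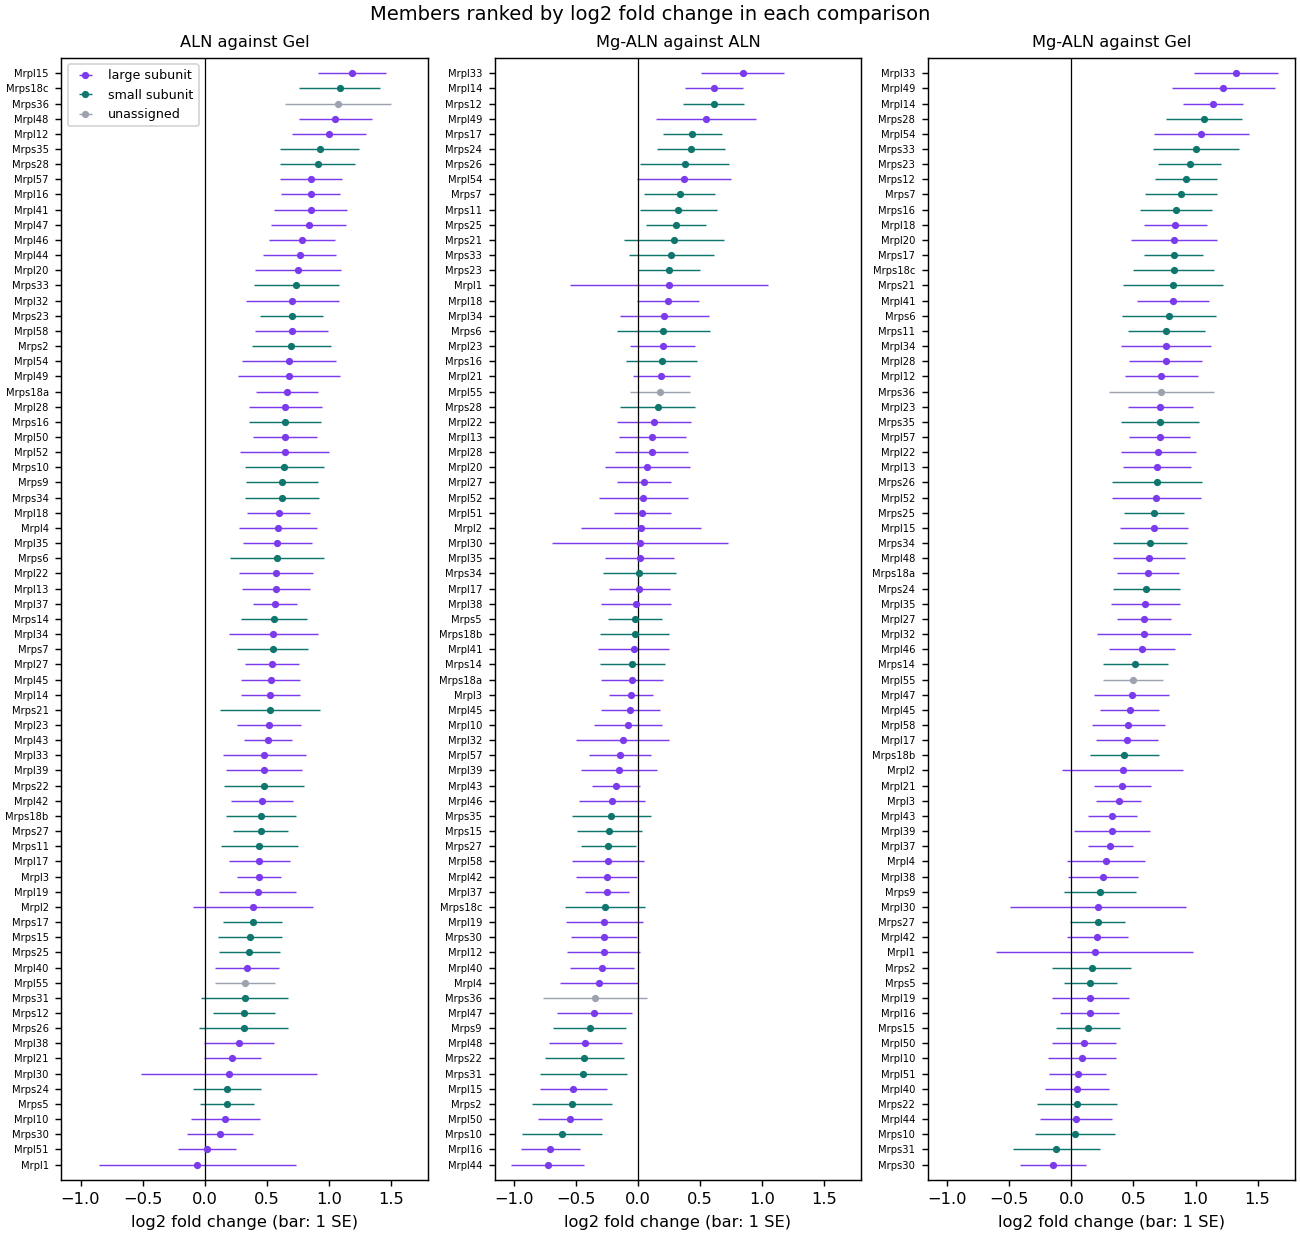
The 73 members ranked by log2 fold change (x axis, bars 1 SE) in each of the 3 comparisons, with large-subunit, small-subunit and unassigned genes in different colours. Against Gel, 72 members in ALN and 71 in Mg-ALN lie right of 0, while 35 of 73 do in Mg-ALN against ALN.

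By subunit, the large-subunit members (45 tested) had a median log2 fold change of 0.57 in ALN against Gel, -0.05 in Mg-ALN against ALN and 0.49 in Mg-ALN against Gel. The small-subunit members (26 tested) had 0.54, 0.08 and 0.68. The ratio of mean FPKM between large-subunit and small-subunit members lay between 1.37 and 1.52 in all 9 libraries, so this ratio varied less than the level of either. Mrpl33, whose level per length is uncertain, is part of the large-subunit mean. Summed CPM of the large subunit averaged 1065 in Gel, 1620 in ALN and 1594 in Mg-ALN. For the small subunit it averaged 491, 709 and 760, so the large-subunit mean was highest in ALN and the small-subunit mean in Mg-ALN. Of the 22 members at p under 0.05 in ALN against Gel, 17 were large-subunit and 4 small-subunit, and of the 26 in Mg-ALN against Gel, 16 and 10. Among large-subunit members found only in mitochondria, 4 of 20 were positive in Mg-ALN against ALN, with a median of -0.17, and 16 of 25 among those shared with bacteria, with a median of 0.03. Whether these classes differ was not tested.

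The Mrps18 paralogues sit in different places of the ribosome, Mrps18b and Mrps18c in the small subunit and Mrps18a in the large one. Mrps18a, which overlaps Rsph9 in the table, had 20.6 ± 2.78 CPM in Gel, 32.6 ± 5.78 in ALN and 31.5 ± 8.89 in Mg-ALN (SD, n = 3). Mrps18b had 12.03, 16.9 and 22.3 CPM in Gel, 29.7, 22.5 and 17.99 in ALN and 24.4, 21.6 and 23.0 in Mg-ALN. Gel and ALN overlapped for Mrps18b, and its log2 fold change between them was 0.45 ± 0.28 and became -0.00267 when library 1 of every group was left out.

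Mrps30, which also belongs to the large subunit in spite of its name, had 27.0, 16.8 and 19.7 CPM in Gel, 26.1, 22.8 and 20.5 in ALN and 19.2, 23.8 and 14.4 in Mg-ALN. The 3 groups overlapped. Its log2 fold change in ALN against Gel was 0.13 ± 0.26, and -0.066 with scaling by library totals. Mrpl58, a peptidyl-tRNA hydrolase that releases stalled chains, had 20.6 ± 3.02 CPM in Gel, 33.5 ± 8.44 in ALN and 28.4 ± 9.69 in Mg-ALN (SD, n = 3). Mrps36, now known as a subunit of the 2-oxoglutarate dehydrogenase complex and not of the ribosome, had 18 ± 6.57, 37.8 ± 15.7 and 29.7 ± 14.1 CPM in the same order. Against Gel, Mrpl58 stood at 0.70 ± 0.29 (log2) in ALN and 0.46 ± 0.29 in Mg-ALN, and Mrps36 at 1.07 ± 0.43 and 0.72 ± 0.42. Between the ALN groups they differed by -0.24 ± 0.29 and -0.35 ± 0.42, within 1 SE of 0.

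Shorter members stood higher than longer ones in both comparisons that involve Mg-ALN. The members ran from 236 to 4125 bases in the table, with a median of 1149 where protein-coding genes tested had 2374. When Mg-ALN was compared with ALN, 28 of the 36 members under the median length were positive (median 0.19), against 7 of the 37 others (median -0.24). The correlation of log2 fold change with log2 length across the 73 genes was -0.60. For Mg-ALN against Gel the medians were 0.71 and 0.28 (r = -0.59). In ALN against Gel they were 0.54 and 0.58 (r = -0.01). Genes share libraries and are not independent replicates, so no p is given.

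The same cut over all 13837 protein-coding genes tested gave medians of 0.07 and -0.06 in Mg-ALN against ALN (r = -0.09), 0.46 and -0.08 in Mg-ALN against Gel (r = -0.27) and 0.32 and -0.04 in ALN against Gel (r = -0.20). In that last comparison the medians of short and long coding genes lay 0.36 apart, and those of short and long members -0.04. Without Mg-ALN library 1 the members' medians in Mg-ALN against ALN were -0.12 and -0.33 (r = -0.44), and those of coding genes -0.12 and -0.03. Within single libraries, the short members stood above the long ones by 0.46 in Mg-ALN library 1, 0.10 in library 2 and 0.12 in library 3, and between -0.19 and 0.06 in the other 6. Coding genes of the same lengths differed by 0.69 in Mg-ALN library 1, by -0.01 and 0.03 in libraries 2 and 3 and by -0.42 to 0.35 in the others. The part of fragment size or RNA quality in this pattern was not tested.

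**Figure D4:**
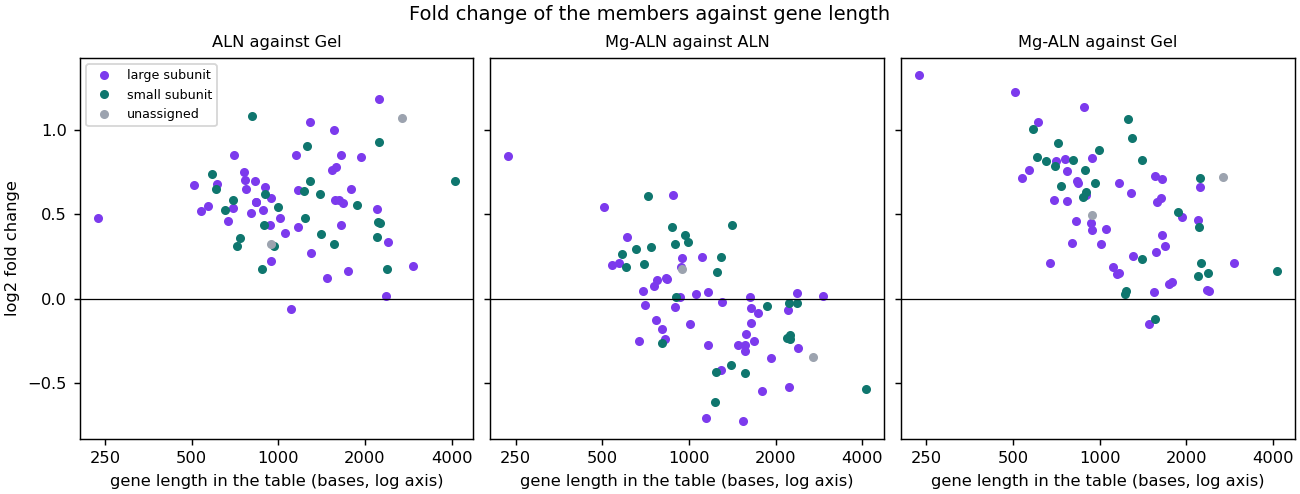
Log2 fold change of each member (y axis) against the gene length given in the table (x axis, bases, log axis) in the 3 comparisons, coloured by subunit. Shorter members lie higher in both comparisons that involve Mg-ALN (r = -0.60 and -0.59) and show no slope in ALN against Gel (r = -0.01).

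The 16 members that start head to head with another protein-coding gene, with starts within 1 kb, made up 21.1% of the 76, against 5.66% of the protein-coding genes of the table. Among genes tested, the shares were 21.9% of members and 8.14% of protein-coding genes. Mrps11 and Mrpl46, 1 from each subunit, start 72 bases apart. Their log2 fold changes were 0.44 and 0.78 in ALN against Gel and 0.77 and 0.57 in Mg-ALN against Gel. Some of the other partners also work in mitochondria. Examples are Sars2, the mitochondrial seryl-tRNA synthetase (16 bases from Mrps12), Ptcd2 (67 bases from Mrps27) and the complex I gene Ndufb5 (266 bases from Mrpl47). Mrps12 stood at 0.92 and its partner Sars2 at -0.12 in Mg-ALN against Gel. In ALN against Gel, Mrpl47 stood at 0.84 and Ndufb5 at 0.74. Mrpl32 stood at 0.71 there and its partner Psma2, a proteasome subunit 192 bases away, at 0.57. Of the other partners tested, Pnpla7 (-0.53), Eme2 (-0.32), Ppp1r10 (-0.27), Hira (-0.23), Helq (-0.16), Zfp189 (-0.04) and Sars2 (-0.02) were negative in that comparison. Fau (1.08), Ptcd2 (0.70), Tcp1 (0.17) and Klc4 (0.08) were positive. The protocol does not mention marking of the strand, and 12 members overlap another gene of the table (among them Mrpl30, Mrpl47, Mrpl49, Mrpl57, Mrps2, Mrps18a and Mrps28), so the values of close or overlapping pairs are uncertain.

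Other parts of the same pathway were described from lists of genes, and no gene of any of them passed edgeR's adjusted threshold. All 14 mitochondrial translation factors tested were positive in ALN against Gel (median 0.45, 2 at p under 0.05), among them Tufm, the elongation factor that brings transfer RNAs (0.61 ± 0.22). Only 3 of the 14 were positive in Mg-ALN against ALN (median -0.29). The 25 genes for assembly of the ribosome and modification of its RNA had medians of 0.35, -0.13 and 0.12 in ALN against Gel, Mg-ALN against ALN and Mg-ALN against Gel. Of them 3 were higher at p under 0.05 in the first and 0 lower, with Mtg1, an assembly GTPase, at 0.98 ± 0.29. The 18 mitochondrial aminoacyl-tRNA synthetases and related enzymes, which charge the transfer RNAs, had medians of 0.21, -0.38 and -0.20. Only 1 of these 18 was positive in Mg-ALN against ALN, where the members had 35 of 73. These lists held longer genes than the members, with median lengths of 2178 bases for the factors, 1750 for assembly and 2281 for the synthetases.

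The nuclear genes of the respiratory chain, the enzyme complexes into which the products of this ribosome are built, had a median length of 1085 bases, close to that of the members. Of 29 tested, 28 were positive in ALN against Gel (median 0.86), with 24 higher and 1 lower at p under 0.05. When the ALN groups were compared, 3 of 29 were positive (median -0.47), with 0 higher and 11 lower at p under 0.05. Their median in Mg-ALN against Gel was 0.34, with 4 higher and 1 lower, beside a median of 0.59 and 26 higher among the members. Cyc1 stood at 0.90 ± 0.19 in ALN against Gel and Uqcrc2 at -0.98 ± 0.26 in Mg-ALN against ALN, both subunits of complex III. Whether the 2 lists differ was not tested. Proteins of the ribosome with names of another form, 5 genes, had medians of 0.08, 0.03 and 0.11, with Chchd1 at 0.97 ± 0.33 and Dap3 at -0.26 ± 0.18 in ALN against Gel.

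The 13 messenger RNAs of mitochondrial DNA, which this ribosome translates, varied far more than its proteins. All 13 were positive against Gel in both groups, with medians of 1.55 in ALN and 1.19 in Mg-ALN, 2 were at p under 0.05 in the first and 0 in the second, and the ranges overlapped for all 13 in both. Mitochondrial genes took 17.5, 5.40 and 4.16% of the counts in Gel, 39.5, 15.6 and 7.61% in ALN and 11.2, 10.6 and 31.6% in Mg-ALN. ALN library 1 and Mg-ALN library 3 had the highest shares, while the members were high in ALN library 1 and not in Mg-ALN library 3. As a share of all other counts, the members made up 0.214, 0.193 and 0.169% in Gel, 0.372, 0.272 and 0.238% in ALN and 0.326, 0.256 and 0.249% in Mg-ALN, and every library of both ALN groups again lay above Gel. When the mitochondrial share was added as a covariate, member medians were 0.42 in ALN against Gel and 0.48 in Mg-ALN against Gel, with 8 and 10 members at p under 0.05, where 3.03 and 5.5% of all genes tested were higher.

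**Figure D5:**
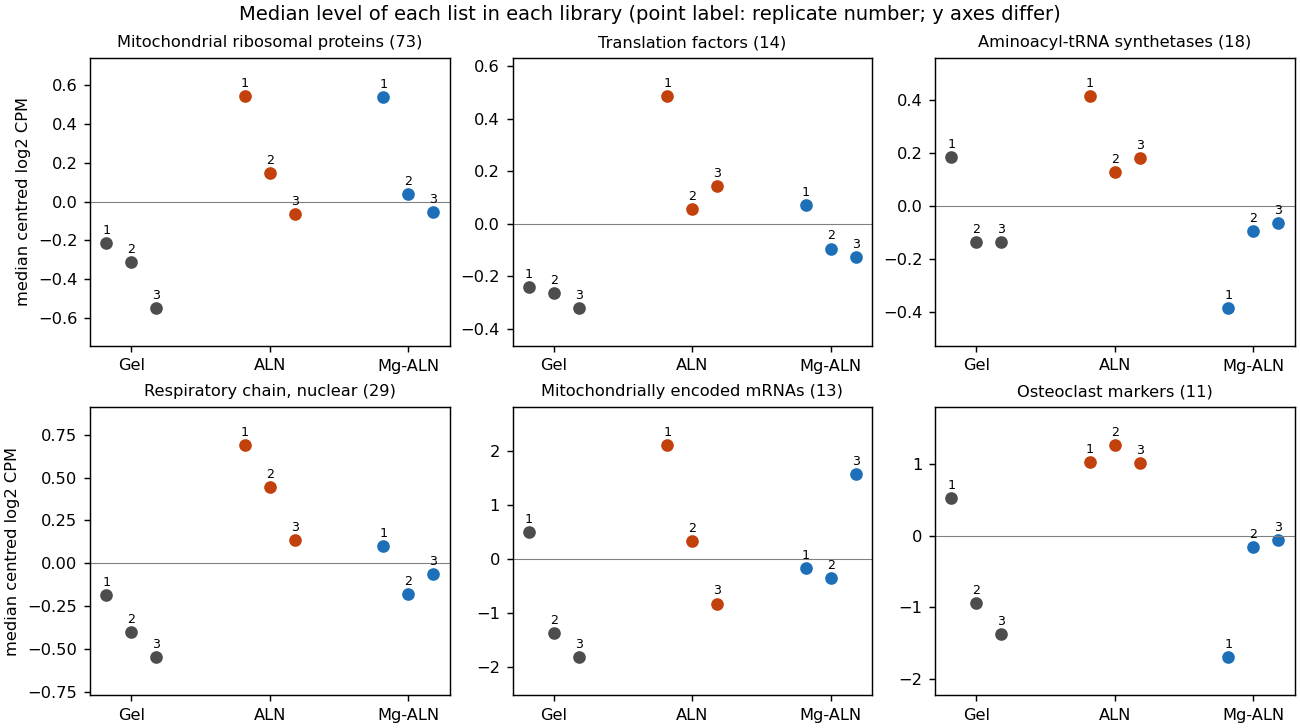
Median centred log2 CPM (y axes, which differ) of 6 lists in each library, by group (x axis), with the replicate number beside each point. Members and translation factors are lowest in the 3 Gel libraries, and for the respiratory chain the ALN libraries lie highest. Mitochondrially encoded messengers are highest in ALN library 1 and Mg-ALN library 3, and osteoclast markers lie highest in all 3 ALN libraries.

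Levels of some markers of bone cells and of other cells moved with the groups or with single libraries. The sums of the macrophage, erythroid, B-lineage, endothelial, adipocyte and cell cycle lists overlapped among all groups. Those of macrophages were 1158 to 2029 CPM in Gel, 1530 to 2309 in ALN and 1037 to 2344 in Mg-ALN. Cell cycle genes had 242 to 551, 267 to 535 and 268 to 461 CPM in the same order. The osteoblast and osteocyte sum, most of it Col1a1, split the libraries as the members' sum did, in the opposite direction. Gel lay above both ALN groups in the ranges given at the start. The list's median centred log2 CPM did not split them, at -0.51 to 1.70 in Gel, 0.22 to 0.87 in ALN and -2.84 to 0.42 in Mg-ALN. Of the list's 10 genes, 4 were positive in ALN against Gel (median -0.58), 3 in Mg-ALN against ALN (-0.64) and 0 in Mg-ALN against Gel (-1.05). Chondrocyte markers were positive in 3 of 8 in ALN against Gel and in 0 of 8 in both comparisons that involve Mg-ALN, with sums of 80.004 to 521 CPM in Gel, 103 to 1031 in ALN and 65.4 to 113 in Mg-ALN. The osteoclast list had 11 of 11 tested genes positive in ALN against Gel and 0 of 11 in Mg-ALN against ALN. Its sum was 2376 to 18464 CPM in Gel, 21914 to 31786 in ALN and 3915 to 12638 in Mg-ALN, and its marker Dcstamp was at 0 in 7 libraries. Mg-ALN library 1, with 1 of the highest member levels, had an osteoclast sum of 3915 CPM and a neutrophil sum of 8349 CPM, where the other libraries had 90.6 to 2030 CPM of the neutrophil list. Neutrophil markers were positive in 8 of 8 in Mg-ALN against Gel, with sums of 151 to 972 CPM in Gel and 543 to 8349 CPM in Mg-ALN. The ranges of these groups overlapped for all 8. The list's median centred log2 CPM was -0.44 to -0.11 in Gel and 2.52, -1.80 and 1.77 in Mg-ALN libraries 1, 2 and 3, with library 2 the lowest of all libraries. The marker Ltf was at 0 in 8 libraries. Skeletal muscle markers summed to 65.5 to 2379 CPM in ALN, 8 to 237 in Mg-ALN and 75.5 to 10676 in Gel, with the highest value in Gel library 3, where members were lowest, and 6 of its 10 genes at 0 in Mg-ALN library 3. With muscle markers as a covariate the member medians were 0.56 in ALN against Gel and 0.60 in Mg-ALN against Gel. Immediate early genes, which many stimuli induce within minutes, were negative in 10 of 10 in ALN against Gel and positive in 10 of 10 in Mg-ALN against ALN. The quality weights of limma-voom were lowest for library 1 of each group (0.444, 0.510 and 0.275), and without those 3 libraries the member medians against Gel were 0.42 and 0.35. The part of osteoblasts, chondrocytes, osteoclasts, neutrophils and the early response in the members' levels was not tested.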

How the data were processed

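Messenger RNA was bound on poly-T beads and cDNA primed with random hexamers, per the labels' protocols, which do not mention marking of the strand. The authors deposited whole-number read counts per gene, with no normalization. The FPKM values that the authors also deposited equal the counts over gene length and over 1 constant per library, which was 0.804 to 1.19 times the column total. Tools named without a role in the submitters' processing notes are featureCounts 1.5.0-p3, StringTie 1.3.3b, HISAT2 2.0.5, fastp, edgeR 3.22.5 and DESeq2 1.20.0. For the genome build, which is not given in the sources used here, none was assumed: gene coordinates are those of the deposited table, and RefSeq (GRCr8) gave names and promoters.

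Groups and replicate numbers came from the sample titles. Total counts were 13388689 to 18763270 per library. All 9 libraries were kept as separate, since chi-square per degree of freedom was at least 78.6 between any pair. The tests used edgeR 4.0.16 in R 4.3.3 (filterByExpr, TMM, quasi-likelihood test, 1 fit with a coefficient per group), with two-sided p-values and Benjamini-Hochberg adjustment over all genes tested. CPM values use the TMM-scaled library sizes. The fit was first tested on simulated data, where recovery of the set changes was required only at a spread below that of these data. Recovery at the spread of these data is not given here. Alternatives were DESeq2 1.42.0, limma-voom 3.58.1 with and without quality weights, other scalings, no filter, covariates, a replicate block and each library left out.

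Same-numbered libraries of Gel and ALN deviated together from their group means (r across genes 0.341, 0.419 and 0.226), so the numbers were taken to pair them. The pairing comes from these correlations, and the labels state none. The tests reported are without the block unless it is named. Between ALN and Mg-ALN r was 0.130, -0.120 and -0.127, and between Gel and Mg-ALN -0.077, -0.045 and -0.199.

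Members, gene lists and tests were chosen with earlier results of these data known. Members named are, in each comparison, the 6 with the smallest p in each direction, the 5 highest and 5 lowest by FPKM, those that did not pass the filter, and Mrpl12, Mrpl58, Mrps12, Mrps30, Mrps18a, Mrps18b, Mrps18c, Mrpl36 and Mrps36. Genes named for their likeness to the others, their promoter or a neighbour were chosen after their values were seen. Of 321 list entries, 312 matched the table.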

Additional observations from a re-analysis of the deposited data

How the results depend on the processing

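No alternative turned the direction of the member median against Gel, which lay at 0.34 to 0.57 over the other settings in ALN and 0.35 to 0.60 in Mg-ALN, and at 0.38 to 0.62 and 0.36 to 0.71 with each library left out. Members at an unadjusted p under 0.05 in ALN against Gel were 10 by library totals (2.7% of all genes tested were higher there), 41 by limma-voom with quality weights (11.9%) and 8 with the mitochondrial share as covariate (3.03%), and 6 to 38 with each library left out. For Mg-ALN against Gel they were 12 by library totals (2.06%), 10 with the mitochondrial share (5.5%) and 8 to 30 with each library left out. Between the ALN groups they were 8 with quality weights, 3 higher (4.11% of members) and 5 lower (6.85%), where 6.59 and 8.42% of all genes tested were. With muscle markers as covariate 1 was higher and 1 lower, where 2.92 and 4.99% of all genes were. They were 1 to 5 with each library left out, where 2.51 to 5.29% of all genes were higher and 3.83 to 6.06% lower. Leaving out library 1 of every group, an alternative chosen after the data were seen, gave 14 in Mg-ALN against Gel. The cause of these moves was not tested. DESeq2 called 1 member in each comparison with Gel, where it called 0.735 and 0.156% of all genes higher, and 1 in the joint test of the 3 groups, where it called 1.71%. Quality weights called 2 in ALN against Gel, beside 1.6% of all genes. With the replicate block, 35 members were at p under 0.05 in ALN against Gel over 9 libraries (6.57% of all genes higher). With the block and only the 2 groups compared, 38 were in ALN against Gel (9.13%) and 15 in Mg-ALN against Gel (2.84%), and the block changed no call.

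For some named members the sign of the log2 fold change depended on the setting. In ALN against Gel, Mrpl1 was 0.075 with the replicate block and -0.51 to 0.34 with each library left out, Mrps30 was -0.066 by library totals and -0.064 to 0.34 with each left out, and Mrps18b was -0.00267 without library 1 of every group. In Mg-ALN against ALN, Mrps18a was 0.043 with muscle markers as covariate and -0.30 to 0.10 with each library left out, and Mrps36 was -0.79 to 0.041. Mrps18b in the same comparison was 0.0048 with RLE scaling, 0.0078 without mitochondrially encoded genes, 0.00515 in DESeq2, 0.014 in limma-voom, 0.017 with quality weights, 0.16 with muscle markers, 0.00495 with the replicate block in the 2 groups, 0.15 without library 1 of every group, and -0.16 to 0.18 with each library left out. In Mg-ALN against Gel, Mrps30 was 0.023 without library 1 of every group and -0.35 to 0.062 with each left out, and Mrps31 was -0.31 to 0.10. Mrpl1, with 9 to 75 counts a library, had an SE of 0.79 in ALN against Gel, where other members of low CPM, Mrpl49 and Mrpl47, had 0.41 and 0.30. Mrpl36, Mrpl53 and Mrps21l had too few counts for any comparison.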
